A study of Mus musculus with 11 samples.

Results

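The collagen chain genes encode the polypeptides that fold in threes into the triple helix of every collagen, and they are described here across kidneys of control mice, lupus-prone mice and lupus-prone mice given DNase I. Members were the gene symbols made of Col, a number, the letter a and a number, with at least 10 counts summed over the 11 libraries, which gave 43 of the 25677 genes in the table. They divide into 11 fibrillar chains, 6 basement membrane chains (Col4a1 to Col4a6) and 26 other chains. Col9a1, with 4 counts in all, fell just outside the minimum, and Col9a2 with 16 and Col25a1 with 19 counts were just inside it.

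RNA-seq was carried out on kidney tissue, 1 mouse a library by the study's description, so p-values measure the spread between these kidneys. Ctr (n = 3) were female C57BL/6J mice, labelled C57B6. Lpr (n = 4) were female MRL/lpr mice not given DNase I, a strain that carries the Fas lpr mutation and develops spontaneous lupus nephritis, and DNase (n = 4) were female MRL/lpr mice given DNase I daily by intraperitoneal injection from week 17. All kidneys were taken at 21 weeks of age, so strain and disease cannot be told apart in any comparison with Ctr.

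As background, fibrillar collagens (types I, III and V among them) form the banded fibrils of the interstitium and are made mainly by fibroblasts and mural cells. Type IV collagen forms the sheet of basement membranes. In the kidney the Col4a1 and Col4a2 chains make the network found in nearly every basement membrane, while the Col4a3, Col4a4 and Col4a5 chains make the network of the mature glomerular basement membrane, secreted by podocytes. In scarring kidneys interstitial fibrillar collagen accumulates.

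The library totals ranged from 33469858 to 38460873 counts, so depth was similar throughout, and for genes with few counts the counting error adds to the spread between mice. Lpr3 stood apart: its counts fell by 0.393 on the log2 scale for each doubling of gene length relative to the mean library, while the slopes of the other 10 libraries lay between -0.0433 and 0.0775. Collagen genes are long, with a median length of 6552 bases against 2931 for all genes. Class medians and counts of members at an adjusted p under 0.05 in comparisons with Lpr are therefore given with and without Lpr3. So are the genes whose call or value turned on it. Other counts in these comparisons include Lpr3 unless stated. Of the kidney markers, the podocyte, endothelial and tubule lists were detected in every library. Markers of tissue around the kidney varied between mice: the summed level of 5 fat genes ran from 29.4 to 795 CPM (counts scaled to a common library total) in Ctr, from 6.59 to 961 CPM in Lpr and from 2.37 to 179 CPM in DNase, and that of 5 urothelial genes from 10.7 to 111, from 6.47 to 101 and from 6.73 to 26.9 CPM.

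What the members share beyond their names is visible in the coding exons of their longest coding transcripts (GENCODE M21, GRCm38). Of 649 coding exons in the 11 fibrillar genes, 305 (47%) were exactly 54 bases long and 82.4% had a length divisible by 9, the unit of a glycine and its 2 partner residues. The basement membrane genes had 4.05% and 45.9%, the other collagens 13.5% and 53.5%, and the coding exons of the 21797 other protein-coding genes 0.452% and 14%. The first 54-base exon with a glycine codon at each repeat position is printed for 4 fibrillar chains, 5′ to 3′ on the coding strand, with all glycine codons in capitals, to show the repeat that makes a collagen chain.
Col1a1 (exon 8, chr11:94939904-94939957, plus strand): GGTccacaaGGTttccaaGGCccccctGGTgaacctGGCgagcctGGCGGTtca
Col1a2 (exon 8, chr6:4515481-4515534, plus strand): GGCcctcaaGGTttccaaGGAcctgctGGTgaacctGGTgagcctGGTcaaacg
Col3a1 (exon 6, chr1:45325360-45325413, plus strand): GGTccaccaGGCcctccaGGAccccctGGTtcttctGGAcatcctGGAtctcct
Col5a2 (exon 6, chr1:45434892-45434945, minus strand): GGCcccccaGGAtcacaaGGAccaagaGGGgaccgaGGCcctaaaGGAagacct
Each of these 54-base exons holds 18 codons. Glycine at 6 of 6 repeat positions in all 4 follows from the choice of exon and is not a separate result. The Col1a1 exon has 1 glycine codon more, next to the last of these.

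Several chains lie side by side in the genome (RefSeq, GRCm38.p6). Col4a1 and Col4a2 are divergent neighbours on chromosome 8 whose annotated 5′ ends overlap by 85 bases, Col4a4 and Col4a3 are divergent on chromosome 1 with an overlap of 114 bases, and Col4a5 and Col4a6 are separated by 1274 bases on the X chromosome. Whether the counting used strand is not given in the sources used here, so reads within these short overlaps are uncertain. Col3a1 and Col5a2 are 24624 bases apart on chromosome 1. The RefSeq promoter windows of Col4a1 and Col4a2 share 78 bases, and they are printed with that of Col4a4 because the members of these 2 pairs are compared below. Each window spans 250 bases before to 50 bases after an annotated start, which need not be the outermost end of the gene. Against the gene positions used here, the Col4a2 window has 250 bases before the gene and 50 in it. The Col4a1 window has 187 before and 113 in the gene, and the Col4a4 window 65 before and 235 in it. The windows are printed 5′ to 3′ on the gene's own strand, and capitals mark CCAAT and GGGCGG on either strand (CCGCCC and ATTGG are their complements).
Col4a1 (chr8:11312777-11313076, minus strand): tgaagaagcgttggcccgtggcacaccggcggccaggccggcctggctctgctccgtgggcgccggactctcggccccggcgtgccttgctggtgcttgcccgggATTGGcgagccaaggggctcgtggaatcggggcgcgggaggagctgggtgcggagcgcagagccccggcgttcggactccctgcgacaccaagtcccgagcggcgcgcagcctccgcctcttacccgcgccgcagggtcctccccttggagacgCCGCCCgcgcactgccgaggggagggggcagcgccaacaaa
Col4a2 (chr8:11312555-11312854, plus strand): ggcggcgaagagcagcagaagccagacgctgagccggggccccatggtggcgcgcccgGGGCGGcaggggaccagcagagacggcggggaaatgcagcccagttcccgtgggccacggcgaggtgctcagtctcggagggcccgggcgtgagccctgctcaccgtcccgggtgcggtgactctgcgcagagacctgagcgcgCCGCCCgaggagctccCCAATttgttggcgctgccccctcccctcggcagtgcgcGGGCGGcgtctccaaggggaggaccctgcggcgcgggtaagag
Col4a4 (chr1:82586800-82587099, minus strand): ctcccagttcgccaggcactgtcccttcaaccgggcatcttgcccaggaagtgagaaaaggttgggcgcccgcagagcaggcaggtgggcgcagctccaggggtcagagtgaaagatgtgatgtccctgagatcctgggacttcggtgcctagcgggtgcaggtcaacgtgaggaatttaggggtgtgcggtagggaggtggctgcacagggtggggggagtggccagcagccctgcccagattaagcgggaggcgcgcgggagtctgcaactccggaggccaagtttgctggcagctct
The window of Col4a1 held 1 CCAAT and 1 GGGCGG match, that of Col4a2 held 1 and 3, and that of Col4a4 held neither. None of these 3 held TATAAA. Over the 36 windows of the 34 members with one, 63.9% held GGGCGG, 33.3% CCAAT and 13.9% TATAAA. Over all 32851 windows these shares were 35.7%, 37.4% and 13.6%. A match is a run of letters and not a shown binding site.

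Per length, 4 of the 6 type IV chains were among the 5 most abundant collagens in these kidneys. Averaged over the 11 libraries, Col4a1 stood at 50.6 FPKM (fragments scaled to gene length and library total), followed by Col18a1 (36.1), which encodes the precursor of endostatin, Col4a2 (32.9), Col4a3 (27.6), Col4a4 (24.9), Col1a2 (24.4), Col3a1 (23.1), Col1a1 (13.4) and Col14a1 (10.7). These were the 9 members at 10 FPKM or more. At a lower level, 21 members reached 1 FPKM, and 13 were below 0.1 FPKM. The latter included the cartilage chains Col2a1, Col9a2, Col9a3 and Col10a1. Levels close in this order could overlap between mice, as did Col4a3 at 33.1 to 40.4 FPKM and Col18a1 at 32.7 to 41.3 FPKM in Ctr.

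The summed level of each class overlapped between all 3 groups. The fibrillar chains summed to 531, 267 and 313 CPM in Ctr1 to Ctr3, to 398, 653, 609 and 455 CPM in Lpr1 to Lpr4, and to 358, 482, 268 and 279 CPM in DNase1 to DNase4. Ctr1 was the control with the high value and lay above 2 of the 4 Lpr kidneys, while every Lpr kidney lay above 3 of the 4 DNase kidneys, and Lpr2 and Lpr3 above all 4. The basement membrane chains summed to 1073, 1047 and 1256 CPM in Ctr, to 1218, 1436, 755 and 1062 CPM in Lpr and to 1203, 1276, 813 and 996 CPM in DNase, with Lpr3 the lowest of all 11 kidneys. The other chains summed to 504, 421 and 509 CPM in Ctr, to 570, 850, 468 and 481 CPM in Lpr and to 521, 669, 382 and 449 CPM in DNase.

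**Figure D1:**
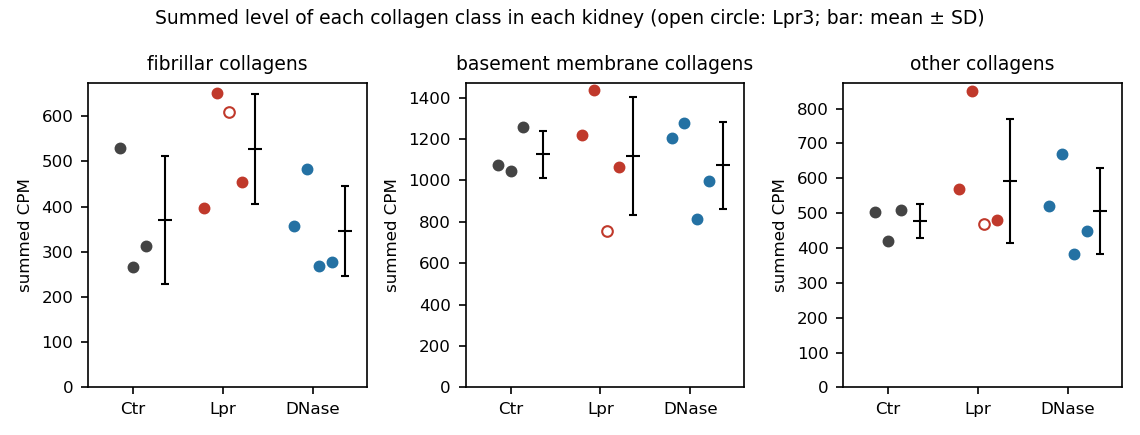
Summed CPM of the 11 fibrillar, 6 basement membrane and 26 other collagen genes (vertical axes) in each kidney of Ctr, Lpr and DNase (horizontal axes), with the group mean ± SD beside the points and Lpr3 as an open circle. The 3 groups overlap in each class, Ctr1 is the high control for fibrillar chains, and Lpr3 is the lowest kidney for basement membrane chains.

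Lpr against Ctr asks how collagen expression differs between the nephritic strain and the control strain. In these kidneys 2 collagen genes rose, Col8a1 and Col6a6, and none fell, of 35 members with enough counts to test (edgeR quasi-likelihood test, adjusted p under 0.05 over all 16074 genes tested). That is 5.71% and 0% of the members, against 7.27% of all genes tested that were higher and 2.92% that were lower. With the study's further requirement of a log2 fold change beyond 2, Col6a6 alone was higher and none lower, against 4.65% and 1.13% of all genes. The other 8 members had too few counts to be tested. In fitted direction, 22 of 35 members were higher, with a median of 0.34 on the log2 scale, and 52.5% of all genes were higher, with a median of 0.03. Without Lpr3, 24 of 35 members were higher, beside 50.1% of all genes. The medians by class were 0.45 for 10 fibrillar, -0.41 for 6 basement membrane and 0.34 for 19 other chains, and without Lpr3 they were 0.41, -0.21 and 0.35. The basement membrane median depends on how the class is drawn. With Col7a1, Col15a1 and Col18a1 moved into it from the other chains (fitted log2 values -0.26, 0.34 and -0.02) it would be smaller in size. The fibrillar median rested in part on Ctr1, without which it was 0.84.

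Among the fibrillar chains, Col1a1 and Col1a2, the 2 chains of type I collagen, did not separate the groups. Col1a1 stood at 120, 47.1 and 48.5 CPM in Ctr1 to Ctr3 and at 74.3, 129, 97.6 and 92.6 CPM in Lpr1 to Lpr4. The Lpr kidneys were all above 2 controls, and Ctr1 was above 3 of them. The log2 fold change was 0.47 (SE 0.357, edgeR adjusted p = 0.522). Col1a2 was at 172, 85 and 95.1 CPM in Ctr and at 124, 207, 180 and 117 CPM in Lpr, a log2 fold change of 0.43 (SE 0.311, edgeR adjusted p = 0.496), with the same high control. Col3a1, the type III chain of reticular fibrils, was at 145, 54.8 and 85.2 CPM in Ctr and at 107, 208, 257 and 151 CPM in Lpr. Of the Lpr kidneys, 3 were above every control, Lpr1 was not, and the log2 fold change of 0.94 (SE 0.392) did not pass (edgeR adjusted p = 0.208), nor did the value of 0.71 without Lpr3 (edgeR adjusted p = 0.231).

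The type V chains, which sit in the core of type I fibrils, went separate ways. Col5a2 was at 43.2, 41.7 and 37.6 CPM in Ctr and at 14.7, 26.2, 28.8 and 15.6 CPM in Lpr, with every Lpr kidney below every control. The log2 fold change was -0.92 (SE 0.267, edgeR adjusted p = 0.0666), and -1.11 without Lpr3 (edgeR adjusted p = 0.0135). Its partner Col5a1 was at 17.9, 10.2 and 13.8 CPM in Ctr and at 18.9, 27.1, 23.4 and 17.4 CPM in Lpr, which overlapped by 1 kidney of each group. The FPKM ratio of Col5a1 to Col5a2 within a kidney was therefore 0.322, 0.19 and 0.284 in Ctr and 0.998, 0.805, 0.632 and 0.869 in Lpr, with no overlap. Col5a3 was low, at 0.988 to 3.72 CPM in Ctr and 1.16 to 3.04 CPM in Lpr.

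Col27a1, a large fibrillar chain of developing cartilage and other tissues, showed how 1 library decided a call. It was at 25.3, 25.8 and 29.9 CPM in Ctr and at 54.9, 49.9, 17 and 56.2 CPM in Lpr. Lpr3 was below every control and the other 3 Lpr kidneys were above every control. It did not pass with all libraries (edgeR adjusted p = 0.311), and passed without Lpr3 (edgeR adjusted p = 0.000996).

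None of the 6 type IV chains passed with all libraries. Col4a1 was at 268, 257 and 317 CPM in Ctr and at 393, 559, 351 and 290 CPM in Lpr, where 3 of 4 Lpr kidneys were above all controls, and Col4a2 was at 179, 174 and 183 CPM in Ctr and at 240, 369, 175 and 195 CPM in Lpr. Their log2 fold changes were 0.52 (SE 0.242, edgeR adjusted p = 0.264) and 0.47 (SE 0.263, edgeR adjusted p = 0.366), so neither passed. The ratio of Col4a1 to Col4a2, the divergent pair whose promoter windows are printed above, ran from 1.44 to 1.69 in Ctr and from 1.45 to 1.96 in Lpr.

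Col4a3, a chain of the mature glomerular network, was at 317, 317 and 368 CPM in Ctr and at 230, 223, 54.7 and 247 CPM in Lpr. All Lpr kidneys were below all controls, and Lpr3 was far below the rest. With all libraries the log2 fold change was -0.82 (SE 0.431, edgeR adjusted p = 0.334), and without Lpr3 it was smaller, -0.51, and passed (SE 0.0982, edgeR adjusted p = 0.0115). Its divergent neighbour Col4a4 was at 245, 247 and 300 CPM in Ctr and at 316, 237, 151 and 283 CPM in Lpr, overlapping throughout. The FPKM ratio of Col4a3 to Col4a4 was 1.53, 1.52 and 1.45 in Ctr and 0.86, 1.12, 0.427 and 1.03 in Lpr, with no overlap with or without Lpr3.

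Col4a5, the X-linked chain of the same network, was at 57.1, 50.4 and 74.9 CPM in Ctr and at 37.5, 43.7, 20.5 and 43.4 CPM in Lpr. The groups did not overlap, and the log2 fold change of -0.74 (SE 0.276) did not pass (edgeR adjusted p = 0.156), and it was -0.54 without Lpr3 (edgeR adjusted p = 0.0529). Taken per length, the mature network chains summed to 0.983, 1.01 and 1.06 times Col4a1 plus Col4a2 in Ctr and to 0.632, 0.38, 0.293 and 0.822 times in Lpr. Beside these values, the summed level of 6 podocyte markers was 781 to 869 CPM in Ctr, 679 to 762 CPM in Lpr1, Lpr2 and Lpr4, and 395 CPM in Lpr3, and their part in the result was not tested. In bulk tissue, fewer cells of a type and less RNA per cell cannot be told apart.

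Col4a6, a chain of smooth muscle and some epithelial basement membranes, varied widely between controls. It was at 7.25, 2.3 and 13.4 CPM in Ctr and at 1.27, 3.33, 2.19 and 4.59 CPM in Lpr (log2 fold change -1.41, SE 0.594, edgeR adjusted p = 0.21). The urothelial markers summed to 70, 10.7 and 111 CPM in the same controls, in the same order of kidneys, and to 6.47, 13, 71.4 and 101 CPM in Lpr. The smooth muscle markers summed to 59.7, 38.8 and 90.9 CPM in Ctr and to 42.4, 53.1, 51.8 and 83.7 CPM in Lpr. Their part in the result was not tested.

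Among the other chains, Col8a1, a short chain collagen of vessel walls, rose. It was at 7.6, 8.19 and 12.1 CPM in Ctr and at 17, 34.2, 25.1 and 21.8 CPM in Lpr. Every Lpr kidney was above every control, and the log2 fold change was 1.41 (SE 0.288, edgeR adjusted p = 0.0156), and 1.40 without Lpr3 (edgeR adjusted p = 0.0161). The call was lost without Ctr1 (edgeR adjusted p = 0.0872) or Ctr2 (edgeR adjusted p = 0.0791).

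Col6a6, a type VI chain, rose from a very low level. It had 13, 2 and 11 counts in Ctr and 78, 47, 24 and 48 counts in Lpr. The groups did not overlap, and the log2 fold change was 2.45 (SE 0.618, edgeR adjusted p = 0.0393). It kept its call only where Lpr3 was the library left out (edgeR adjusted p = 0.0182), and without any other single library the adjusted p ran from 0.0696 to 0.105. The abundant type VI chains, which form beaded filaments, were higher in Lpr without passing: Col6a2 at 25.4, 16.1 and 20.1 CPM in Ctr and 45.4, 40, 25.6 and 25.5 CPM in Lpr, and Col6a3 at 26.8, 19.8 and 22.5 CPM against 35.4, 45.4, 27.2 and 28.3 CPM. Neither overlapped between the groups, while Col6a1 did, at 24.8 to 35.9 CPM in Ctr and 30.8 to 56.3 CPM in Lpr.

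Col14a1, which binds the surface of fibrils, was at 53.6, 43.8 and 39.3 CPM in Ctr and at 98.8, 151, 71.8 and 66.8 CPM in Lpr. The groups did not overlap, the log2 fold change was 1.10 (SE 0.301), and the test was narrowly missed (edgeR adjusted p = 0.0528) and passed without Lpr3 (edgeR adjusted p = 0.0227). Of the abundant multiplexins, Col18a1 was at 252 to 304 CPM in Ctr and 198 to 375 CPM in Lpr, and Col15a1 at 17.9 to 37.5 and 22.4 to 56 CPM. The fibril-surface chain Col12a1 was at 11.8 to 21.7 CPM in Ctr and 16.2 to 55.5 CPM in Lpr, with Lpr2 far above the other Lpr kidneys.

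There were 6 members that were higher in every Lpr kidney than in every control (Col6a2, Col6a3, Col6a6, Col8a1, Col14a1 and Col26a1) and 3 were lower (Col4a3, Col4a5 and Col5a2). These are 17.1% and 8.57% of the members tested, beside 14.2% and 11.4% of all genes tested. Without Lpr3, 5 members rose (Col6a2, Col6a6, Col8a1, Col14a1 and Col27a1) and 2 fell (Col4a3 and Col5a2), which is 14.3% and 5.71% of the members against 11% and 6.79% of all genes.

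**Figure D2:**
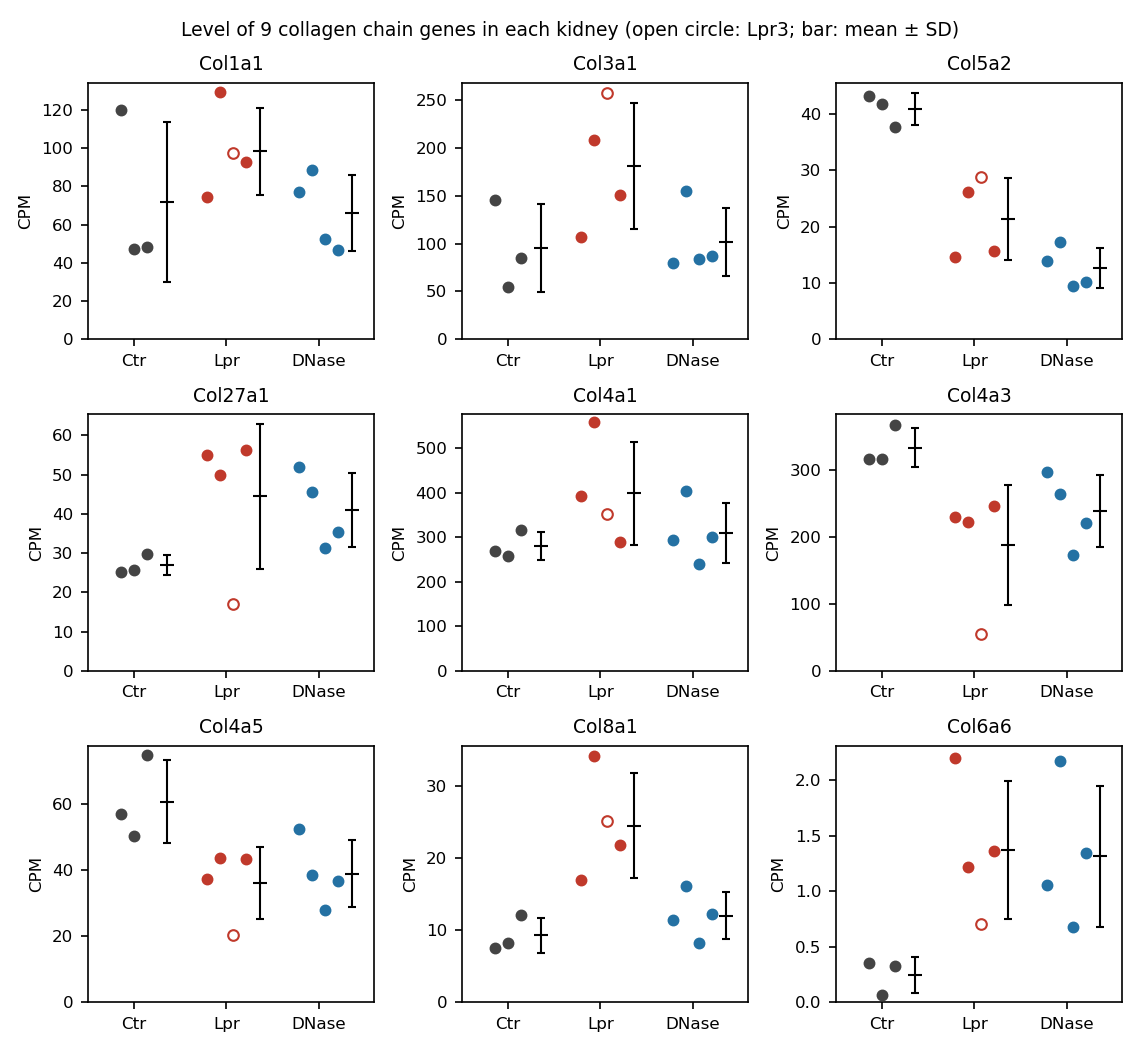
CPM of 9 collagen chain genes (vertical axes, from 0) in each kidney of Ctr, Lpr and DNase (horizontal axes), with mean ± SD beside the points and Lpr3 as an open circle. Col5a2 and Col4a3 are lower in all MRL/lpr kidneys than in all controls, Col8a1 is higher in all 4 Lpr kidneys than in all other kidneys, and Lpr3 is the lowest kidney of all for Col27a1, Col4a3 and Col4a5.

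Lpr3 did not lower all collagens alike. Set against the mean of the other 3 Lpr kidneys, it was lowest of the 4 for 12 of 35 members (34.3%), compared with 64.7% of the 6299 genes in the same span of lengths. For the type IV chains it was lowest for 4 of 6, and for fibrillar chains for 2 of 10. The log2 difference was -2.09 for Col4a3, -1.65 for Col27a1 and -0.87 for Col4a4, but 0.78 for Col3a1, 0.66 for Col5a2 and 0.02 for Col1a1. In the same library the fat markers summed to 961 CPM and the fibroblast and mural markers to 654 CPM, the highest of all kidneys, and their part in these values was not tested.

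**Figure D3:**
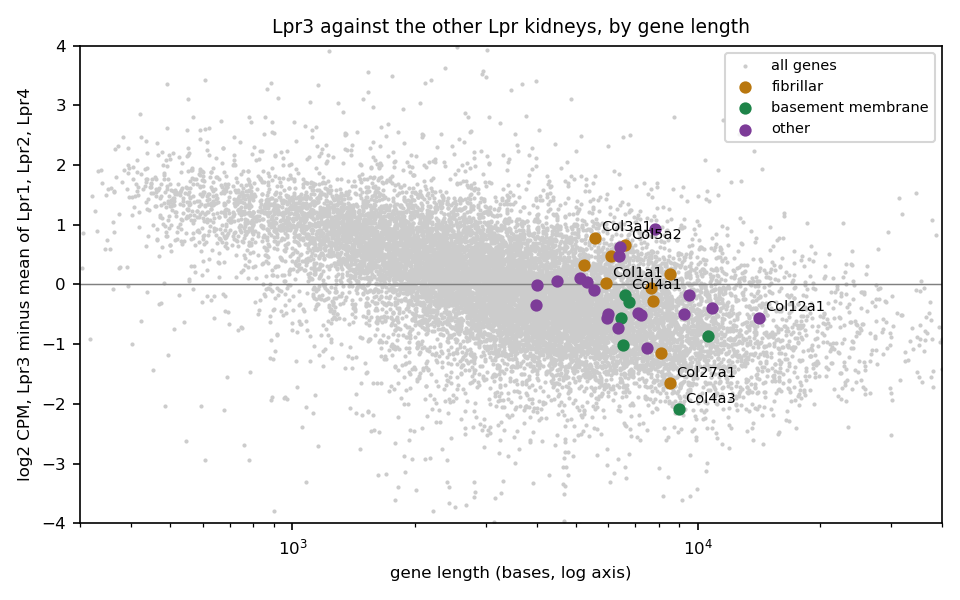
Difference in log2 CPM between Lpr3 and the mean of Lpr1, Lpr2 and Lpr4 (vertical axis) against gene length in bases (horizontal log axis) for all genes with a mean of at least 10 counts in Lpr (grey) and for 35 collagen genes coloured by class. Differences fall with length for all genes, Col4a3 (-2.09) and Col27a1 (-1.65) lie lowest among the collagens, and Col3a1 (0.78) and Col5a2 (0.66) lie above 0.

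DNase against Lpr asks how DNase I treatment changed collagen expression within the strain. No collagen gene passed the edgeR test in either direction, nor did any of the 15832 genes tested, so the background in this test was 0% higher and 0% lower. The study, which used DESeq2 and a fold requirement, did report some genes higher and some lower in this comparison. At an unadjusted p under 0.05 there were 5 members lower (Col1a1, Col3a1, Col5a2, Col8a1 and Col17a1) and 1 higher (Col11a1), or 14.3% and 2.86% of 35, beside 3.43% and 2.17% of all genes. DESeq2 also gave 0 members, with 4 left without an adjusted p, and its count over all genes is not given here. In fitted direction 26 of 35 members (74.3%) were lower, with a median of -0.36 on the log2 scale, and 52.9% of all genes were lower, with a median of -0.02. The class medians were -0.57 for fibrillar, 0.01 for basement membrane and -0.36 for other chains. Without Lpr3 they were -0.54, -0.15 and -0.32, with no member past the test (smallest edgeR adjusted p = 0.301). In that fit 28 of 35 members were lower, beside 51.8% of all genes. At an unadjusted p under 0.05 it gave 4 members lower and 0 higher, and the share over all genes was not computed.

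The smallest p belonged to Col8a1, which stood at 11.4, 16.2, 8.3 and 12.2 CPM in DNase, every value below all 4 Lpr kidneys (17 to 34.2 CPM) with DNase1 and DNase3 inside the control range of 7.6 to 12.1 CPM and DNase2 and DNase4 above it. The log2 fold change was -1.03 (SE 0.257) and did not pass (edgeR adjusted p = 0.82). The only other non-overlapping member was Col17a1, an epithelial anchoring chain with few counts, at 0.558, 0.84, 0.177 and 0.824 CPM in DNase against 1.18 to 1.28 CPM in Lpr. These 2 of 35 members (5.71%) were lower and none was higher, beside 1.68% and 2.08% of all genes.

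The type I and III chains had lower mean values in DNase that overlapped with Lpr. Col1a1 was at 77, 88.7, 52.3 and 46.7 CPM in DNase, with 2 kidneys below every Lpr kidney (log2 fold change -0.58, SE 0.242, edgeR adjusted p = 0.854). Col1a2 was at 117, 147, 77.4 and 82.9 CPM (log2 fold change -0.57, SE 0.26, edgeR adjusted p = 0.854). Col3a1 was at 80.1, 155, 84 and 87.1 CPM, where 3 kidneys were below every Lpr kidney and DNase2 was not (log2 fold change -0.84, SE 0.307, edgeR adjusted p = 0.84). Without Lpr3, the highest Lpr kidney for Col3a1, the value was smaller in size (-0.62, SE 0.278, edgeR adjusted p = 0.501). The ratio of Col1a1 to Col1a2 overlapped between all groups, at 0.45 to 0.614 in Ctr, 0.479 to 0.699 in Lpr and 0.496 to 0.595 in DNase.

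Col5a2 was at 13.9, 17.2, 9.51 and 10.2 CPM in DNase, 3 of them below every Lpr kidney (log2 fold change -0.75, SE 0.281, edgeR adjusted p = 0.85). Leaving out Lpr3, its highest Lpr kidney, gave -0.575 (SE 0.261, edgeR adjusted p = 0.502). For Col27a1, where Lpr3 was lowest, the log2 fold change was -0.115 with all libraries (SE 0.336, edgeR adjusted p = 0.942). It was -0.391 without Lpr3 (SE 0.165, edgeR adjusted p = 0.48). Among the type IV chains, Col4a1 was at 294, 403, 239 and 301 CPM in DNase (log2 fold change -0.37, SE 0.229, edgeR adjusted p = 0.854) and Col4a2 at 196, 276, 150 and 189 CPM (log2 fold change -0.28, SE 0.263, edgeR adjusted p = 0.855). Col4a3 was at 298, 264, 174 and 222 CPM, on both sides of the Lpr values other than Lpr3. Its log2 fold change of 0.35 (SE 0.396, edgeR adjusted p = 0.869) rested on Lpr3, without which it was 0.03 (SE 0.165, edgeR adjusted p = 0.959). Of the fitted values above 0, the smallest p belonged to low members: Col11a1 was at 1.45, 1.54, 0.908 and 0.566 CPM in DNase and 0.678, 0.339, 0.236 and 0.85 CPM in Lpr (log2 fold change 1.08, SE 0.479, edgeR adjusted p = 0.854). Col24a1 was at most 0.809 CPM in any kidney. Col6a5 was at 0.363, 1.84, 0.328 and 0.566 CPM in DNase and at 0.594, 0.521, 0.443 and 0.425 CPM in Lpr, so its fitted log2 fold change of 0.63 (SE 0.56, edgeR adjusted p = 0.854) rested on DNase2.

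Markers of cell types and of tissue around the kidney differed beside these values. All 8 fibroblast and mural markers, all 4 smooth muscle markers, all 5 urothelial markers, all 4 skeletal muscle markers and all 4 tested fat markers were lower in DNase in fitted direction, and none passed. Higher in DNase were 5 of 6 podocyte, 3 of 4 proximal tubule and 3 of 4 distal nephron markers. So were 3 of 6 endothelial and 3 of 6 leukocyte markers, and none of these passed. The fibroblast and mural list summed to 213 to 372 CPM in DNase, 283 to 654 CPM in Lpr and 238 to 420 CPM in Ctr, the smooth muscle list to 27.5 to 53.1, 42.4 to 83.7 and 38.8 to 90.9 CPM, and the skeletal muscle list to 2.28 to 6.64, 8.31 to 11.2 and 9.85 to 23.5 CPM, with none of their genes at 0 in any kidney. Their part in the collagen values was not tested.

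**Figure D4:**
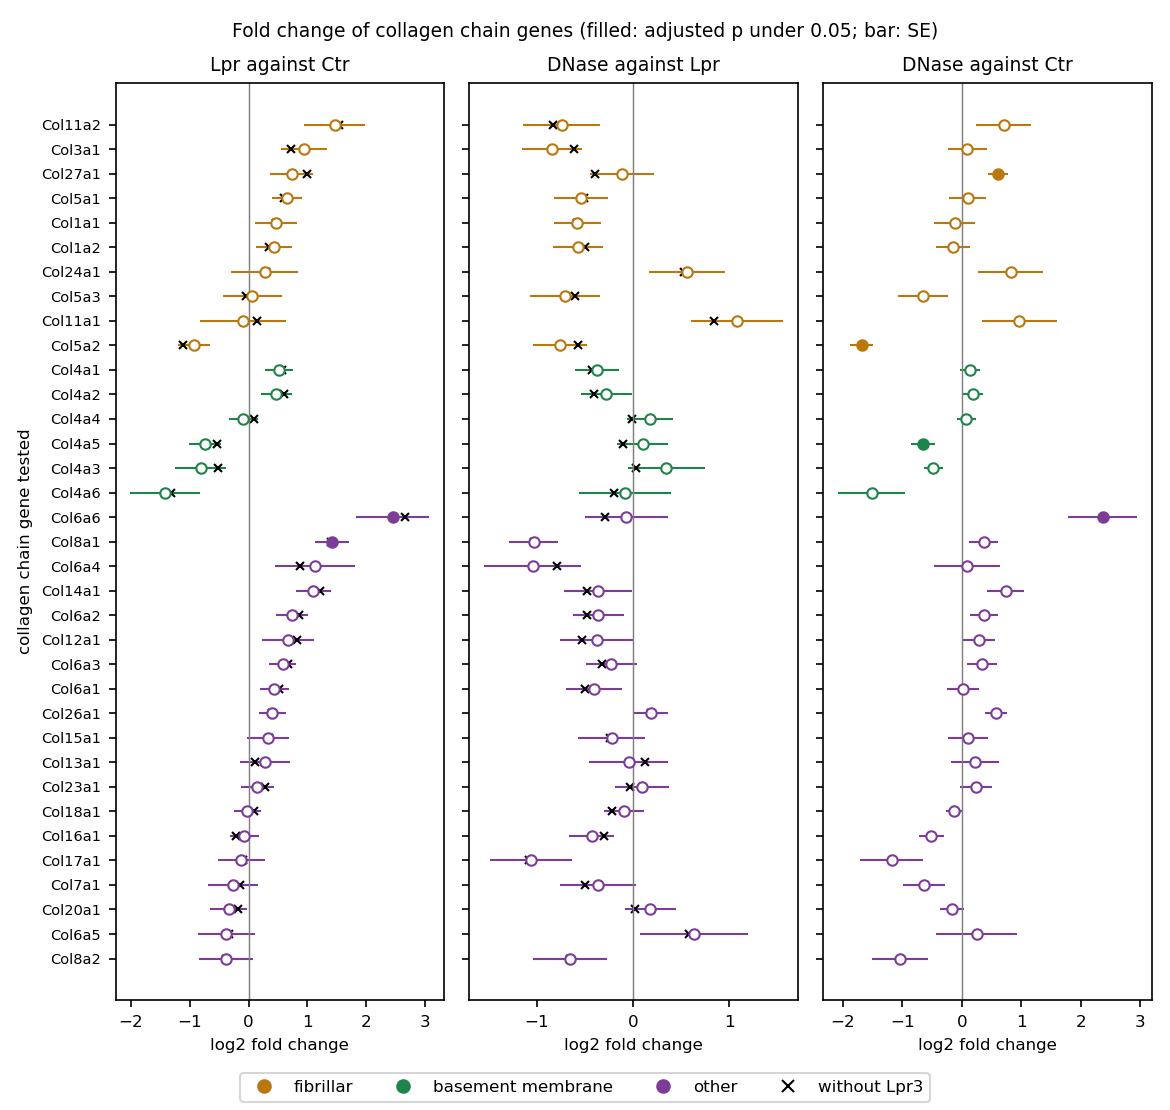
Log2 fold change (horizontal axes) of the 35 collagen chain genes tested in all 3 comparisons (vertical axis), coloured by class, with SE bars, filled where edgeR adjusted p was under 0.05 and with a cross for the fit without Lpr3. In Lpr against Ctr, Col6a6 and Col8a1 are filled, in DNase against Lpr none is filled and 26 of 35 lie below 0, and in DNase against Ctr Col27a1, Col5a2, Col4a5 and Col6a6 are filled.

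DNase against Ctr compares treated lupus-prone mice with the control strain, and it shares its libraries with the other 2 comparisons. Of 36 members tested, Col6a6 and Col27a1 rose and Col5a2 and Col4a5 fell, 5.56% in each direction beside 13.1% and 8.61% of 16100 genes tested. With the study's fold requirement 1 was higher (Col6a6) and 0 lower, beside 4.56% and 1.45%. The class medians were 0.10 for fibrillar, -0.20 for basement membrane and 0.16 for other chains, beside 0.002 for all genes. All 4 skeletal muscle markers also fell in DNase against Ctr, and their part in the collagen values was not tested.

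Col5a2 gave the firmest result among the collagens. Its DNase values of 9.51 to 17.2 CPM lay far below the Ctr values of 37.6 to 43.2 CPM (12.7 ± 3.56, SD, n = 4, against 40.8 ± 2.87, SD, n = 3). The log2 fold change was -1.68 (SE 0.19, edgeR adjusted p = 0.00024). The ratio of Col5a1 to Col5a2 was 0.735, 1.09, 0.752 and 1.03 in DNase, above all controls, as in Lpr.

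The other 3 calls were less firm. Col6a6 had 38, 80, 27 and 52 counts in DNase and at most 13 in Ctr (log2 fold change 2.37, SE 0.577, edgeR adjusted p = 0.017). Col27a1 was at 52, 45.7, 31.4 and 35.3 CPM in DNase, all above the controls (log2 fold change 0.61, SE 0.167, edgeR adjusted p = 0.0299). Its call was lost without Ctr1, Ctr2, DNase1 or DNase2 (edgeR adjusted p from 0.0515 to 0.114). Col4a5 was at 52.5, 38.5, 27.9 and 36.8 CPM, with DNase1 above the lowest control (log2 fold change -0.65, SE 0.2, edgeR adjusted p = 0.0471). Its call was lost without Ctr1, Ctr3, DNase2, DNase3 or DNase4 (edgeR adjusted p from 0.0833 to 0.168).

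Col4a3 was below all controls in every DNase kidney, as in Lpr, and missed the test (log2 fold change -0.48, SE 0.163, edgeR adjusted p = 0.0671), while it passed in DESeq2 (adjusted p = 0.0187). The ratio of Col4a3 to Col4a4 was 0.989, 1.07, 0.933 and 1.08 in DNase, all below the controls' 1.45 to 1.53, while the podocyte markers summed to 742 to 812 CPM in DNase and overlapped with Ctr. Per length, Col4a3, Col4a4 and Col4a5 summed to 1.0, 0.607, 0.748 and 0.715 times Col4a1 plus Col4a2 in DNase1 to DNase4. DNase1 lay inside the control range of 0.983 to 1.06 for this ratio. Col26a1, a low non-fibrillar chain, was at 6.3, 5.96, 6.96 and 4.94 CPM in DNase and at 4.8, 3.44 and 3.84 CPM in Ctr (log2 fold change 0.58, SE 0.186, edgeR adjusted p = 0.0532), and passed in DESeq2 (adjusted p = 0.0218). There were 3 members higher in every DNase kidney than in every control (Col6a6, Col26a1 and Col27a1) and 2 lower (Col4a3 and Col5a2), 8.33% and 5.56% beside 18.2% and 13.7% of all genes.

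**Figure D5:**
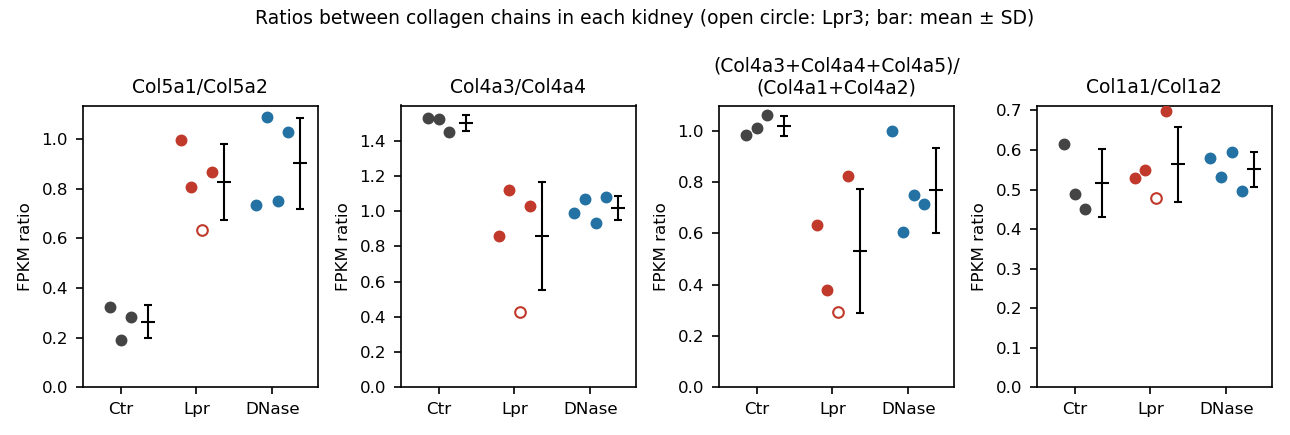
Ratio of FPKM values between collagen chains (vertical axes, from 0) in each kidney of Ctr, Lpr and DNase (horizontal axes), with mean ± SD beside the points and Lpr3 as an open circle. Col5a1/Col5a2 is higher and Col4a3/Col4a4 lower in all 8 MRL/lpr kidneys than in the 3 controls, while Col1a1/Col1a2 overlaps between groups.

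Genes that build, crosslink and read collagen were counted beside the chains, to be read against 7.27% of all genes higher and 2.92% lower in Lpr against Ctr, and 13.1% and 8.61% in DNase against Ctr. Of 18 tested enzymes and chaperones of collagen folding, 0 rose and 1 fell in Lpr against Ctr: Colgalt2, a collagen galactosyltransferase (log2 fold change -1.89, SE 0.218, edgeR adjusted p = 0.00127). Of 13 tested processing and crosslinking genes, Loxl3 rose (1.64, SE 0.411, edgeR adjusted p = 0.038) and Loxl4 fell (-2.65, SE 0.265, edgeR adjusted p = 0.000713), both lysyl oxidases that crosslink collagen. Of 10 tested collagen receptors Lair1, an inhibitory receptor of leukocytes, rose (2.49, SE 0.397, edgeR adjusted p = 0.00502), beside 5 of 6 leukocyte markers, whose summed level was 15.8 to 28.3 CPM in Ctr and 117 to 302 CPM in Lpr. None of 14 fibril-associated proteins and none of 17 basement membrane partners (laminins, nidogens and the like) passed in Lpr against Ctr. Without Lpr3 the 4 genes named here kept their calls, and 4 more passed: P3h3 (0.67, edgeR adjusted p = 0.0365), Tll1 (1.12, edgeR adjusted p = 0.0374) and the laminin chain Lama3 (0.82, edgeR adjusted p = 0.00541) were higher, and Pcolce (-0.34, edgeR adjusted p = 0.033) was lower, beside 11% and 6.79% of all genes.

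In DNase against Lpr none of these genes passed. The fitted values were lower for 15 of 18 enzymes and chaperones, 12 of 13 processing genes, 8 of 10 receptors, 14 of 14 fibril-associated proteins and 8 of 17 basement membrane partners, with medians of -0.16, -0.31, -0.16, -0.42 and 0.06, beside -0.02 for all genes. In DNase against Ctr the calls of Colgalt2, Loxl3, Loxl4 and Lair1 were in the same direction as in Lpr, and P3h3, Tll1 and Loxl2 also rose and P4ha2 and Pcolce also fell. The fibril-associated proteins Fmod (fibromodulin; log2 fold change -1.03, SE 0.208, edgeR adjusted p = 0.00666), Postn (periostin; -1.29, SE 0.382, edgeR adjusted p = 0.0392) and Prelp (-0.93, SE 0.285, edgeR adjusted p = 0.0449) fell.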

How the data were processed

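The authors trimmed the reads with fastp, counted them per gene with HTSeq on mm10 and compared groups with DESeq2, per the labels and the study's methods; R 3.2.0 is named in the submitters' processing notes. They deposited raw counts and FPKM for 25677 genes in 11 libraries, and 0 columns were left unused. Library totals were 33469858 to 38460873 counts. Gene length was recovered from deposited count and FPKM values. The members, classes and gene lists were chosen with earlier results of these data known.

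Counts were tested in R 4.3.3 with edgeR 4.0.16 (TMM, filterByExpr, quasi-likelihood test, 2 groups per fit), and p-values were adjusted by Benjamini-Hochberg over all genes tested. A gene passed at an adjusted p under 0.05. The SE of a log2 fold change was its size divided by the square root of F. Sums and ratios over members were described without a test. CPM used TMM-scaled library sizes. Alternatives used DESeq2 1.42.0, and limma 3.58.1 on log2(FPKM + 1) or log2(FPKM + 0.1) after dropping genes whose FPKM averaged under 0.5. The fits were tested on simulated data. The labels do not say that replicates were separate animals; the study describes 1 mouse a library. Genes described singly were the chains of types I, III, IV and V, Col6a1 to Col6a3, Col8a1, Col12a1, Col14a1, Col15a1 and Col18a1, all members past the test, the 3 smallest p in each comparison and direction and the 8 highest FPKM, and from the other lists up to 4 genes past the test. Col17a1 was added after its values were seen. Promoter windows and positions came from RefSeq (GRCm38.p6, the same assembly as mm10), exons from GENCODE M21. Col4a3, Col1a1 and Col5a2 had no promoter window in the table used.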

Additional observations from a re-analysis of the deposited data

Results flagged for a closer look

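Among 74 groups of 4 kidneys examined, 6 held a value far from the other 3 by Dixon's 95% criterion on the gap relative to the range, and chance flags about 1 in 20 groups. In Lpr, Lpr3 was low for Col4a3 (54.7 CPM, the others 223 to 247) and Col27a1 (17 CPM, the others 49.9 to 56.2), and high for the FPKM ratio of Col3a1 to Col1a1 (2.81, the others 1.53 to 1.74). Lpr1 was low for Col5a3 (1.16 CPM, the others 2.86 to 3.04). In DNase, DNase2 was high for Col3a1 (155 CPM, the others 80.1 to 87.1) and for Col6a5 (1.84 CPM, the others 0.328 to 0.566).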

How the results depend on the processing

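The number of collagen genes past the test moved with the setting. Of the alternative class medians, 141 moved by less than the spread between kidneys and 3 by more. That spread (SD within groups of the mean log2 CPM of a class) was 0.361 for fibrillar, 0.384 for basement membrane and 0.349 for other chains. It is about as large as the medians or larger, so a median that moved by less could still change sign. The share of all genes past the test was computed only for the main fits and for Lpr against Ctr without Lpr3. How far the counts under other settings follow the calls over all genes was not tested. For Lpr against Ctr the main counts were 2 higher and 0 lower. DESeq2 gave 4 higher and 1 lower, one fit of all 3 groups 1 lower and removal of each library's length trend 1 lower. limma gave 1 higher on log2(FPKM + 1), 1 on log2(FPKM + 0.1) and 0 with no filter, and the fold requirement left 1. Leaving out 1 library gave 0 (without Ctr1) to 5 (without Lpr3) higher and 0 to 2 (without Lpr3) lower. The fibrillar median ran from 0.24 (without Ctr2) to 0.84 (without Ctr1) on leaving out 1 library, and was 0.16 with limma and no filter. For DNase against Lpr no setting gave a member past the test, and the fibrillar median was -0.16 with limma and no filter. Leaving out 1 library, the value of Col6a5 ran from -0.24 (without DNase2, a reversed sign) to 0.89 (without DNase3). For DNase against Ctr the main counts were 2 higher and 2 lower. DESeq2 gave 3 and 3, one fit of all 3 groups 1 and 1, limma gave 1 lower on either pseudocount and 0 higher and 1 lower with no filter, and the fold requirement left 1 and 0. Leaving out 1 library gave 1 (without Ctr2) to 3 (without DNase3) higher and 1 (without Ctr1) to 4 (without DNase1) lower, and the fibrillar median ran from -0.21 (without DNase2) to 0.49 (without Ctr1).

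With the replicate number as a replicate block, DNase against Ctr gave 0 higher and 1 lower. The deviations of same-numbered kidneys correlated between -0.277 and 0.158, so no pairing by number was visible. With so few kidneys a group, these values cannot show that the numbers carry no pairing. Col11a1, Col17a1, Col6a6 and the other low members rest on few counts, and depth limits what can be seen in them. For 49 further named values not printed as fold changes, 777 alternative values were computed, of which 55 changed sign and none of those passed the test. Another 5 kept their sign and passed where the main fit did not. They were for Col14a1 and Col4a6 in DNase against Ctr and for Col27a1 and Col6a2 in Lpr against Ctr.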
